A study of Mus musculus with 4 samples.

Results

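The genes examined were 5 integrin subunits known from leukocytes, *Itgb2*, *Itgam*, *Itgal*, *Itgax* and *Itgae*, and the complement gene *Hc*. They occupy 6 of the 84 wells of a quantitative PCR array for extracellular matrix (ECM) and adhesion molecules, namely D05, D01, C12, D03, C11 and C05 in the same order. The wells carry no gene names in the deposited table, so names follow the alphabetical layout of this commercial array. The layout was checked by matching the profiles of key genes named in the study to the wells. For 11 of 11 such genes, the nearest well was the one that the layout assigns. *Hc* and *Itgae* were among them, whereas the names of the other 4 genes, and of most other wells named below, rest on the layout alone.

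An integrin is a pair of one α and one β subunit that spans the membrane and binds matrix or another cell. The β2 subunit encoded by *Itgb2* pairs with αL (*Itgal*), αM (*Itgam*) or αX (*Itgax*), and these receptors are known for the adhesion, migration and phagocytosis of blood-derived cells, including the monocytes and macrophages from which osteoclasts arise. The αE subunit encoded by *Itgae* pairs with another β subunit, β7, and holds T cells and some dendritic cells to epithelium through E-cadherin. *Hc* encodes haemolytic complement, the complement component that is cleaved to start assembly of the membrane attack complex, and the liver is its main source.

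The 4 cultures were primary long-bone osteoblasts (OBs) from 4-day-old female or male mice, all with floxed *Vegf* alleles, used at passage 1. Adenovirus with Cre-recombinase and GFP was used to delete *Vegf* (female OBVEGFKO, male OBVEGFKO), and adenovirus with GFP alone gave the controls (female WT, male WT), so that every culture was transduced, for 6 days, and every culture carried the floxed alleles. After 24 h in 1% serum, 500 ng of RNA per preparation was reverse transcribed. Each group was 1 culture, hence there is no replicate error, no comparison of 2 groups could be tested, and every difference below is one between single cultures. All 4 comparisons draw on the same 4 cultures, so that those with a culture in common are not independent. The number of mice behind a culture is not given in the sources used here, and *Vegf* mRNA was not analysed here.

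The array reports the cycle threshold (Ct), the cycle at which the product becomes detectable, and 1 cycle less stands for 2-fold more template. The highest Ct was 35, which was read as the limit of detection. The median Ct of the array was 25.96 (female) and 25.53 (male) in the WT cultures, and 21.92 (female) and 22.56 (male) in the OBVEGFKO cultures, and values below are given in this order. Both OBVEGFKO cultures thus gave lower Ct values across the array than both WT cultures. Fold changes were corrected by the change in the housekeeping genes, and are set beside the median of the 76 wells that were under 35 in all 4 cultures. Single wells stood far apart in the female cultures: *Lamc1* had a Ct of 13.67 in female OBVEGFKO and of 28.83 to 31.97 in the others, *Sele* had 15.65 in female OBVEGFKO and 35 in the others, and *Timp1* had 30.02 in female WT and 19.30 to 22.39 in the others. None of the 4 β2-family genes was among the 4 wells (these 3 and *Col2a1*) that departed from the array median by more than 4 on the log2 scale, and for *Itgae* and *Hc* only limits of the departure are known.

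Genes for the β2 family were detected in every culture, and *Itgae* and *Hc* lay at or near the limit in all but the female OBVEGFKO culture. *Itgb2*, the common β2 chain, had Ct values of 23.50 and 23.34 in female and male WT cells, and of 19.44 and 19.70 in female and male OBVEGFKO cells. The 2 OBVEGFKO cultures were lower than the 2 WT cultures with no overlap, and the sexes lay close together within each genotype. Its Ct ranked between 23 and 31 of 84 from the lowest, in the same part of the array as *Icam1*, a cell-surface ligand of the β2 integrins, which ranked between 34 and 36. Such ranks compare different PCR assays, whose efficiencies are unknown, and describe signal and not transcript number.

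*Itgam*, the αM chain of the complement receptor of macrophages and neutrophils, had Ct values of 26.12 and 25.65 in female and male WT cells, and of 22.79 and 22.29 in female and male OBVEGFKO cells. It was the α subunit of this group with the lowest Ct in all 4 cultures. *Itgal*, the α chain of the lymphocyte function-associated antigen, had Ct values of 31.31, 30.81, 27.96 and 26.71 in the same order. *Itgax*, the αX chain best known as a marker of dendritic cells, had 31.26, 31.35, 26.99 and 27.52. Like *Itgb2*, each of these 3 α subunits was lower in Ct in both OBVEGFKO cultures than in either WT culture, as were 75 of the 76 wells under 35 in all cultures (all but *Pecam1*). *Itgal* and *Itgax* were 0.05 cycles apart in female WT cells, *Itgax* was the lower in both female cultures, and *Itgal* was the lower in both male cultures.

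*Itgae* had Ct values of 35 and 34.55 in female and male WT cells, and of 31.64 and 35 in female and male OBVEGFKO cells. *Hc* had 35, 34.93, 31.68 and 35 in the same order. Both genes were therefore clearly under the limit in the female OBVEGFKO culture, within 0.45 cycles of the limit in male WT cells, and at the limit in the remaining cultures. The 2 wells differed from each other by 0.38 cycles in male WT cells and by 0.04 cycles in female OBVEGFKO cells.

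**Figure D1:**
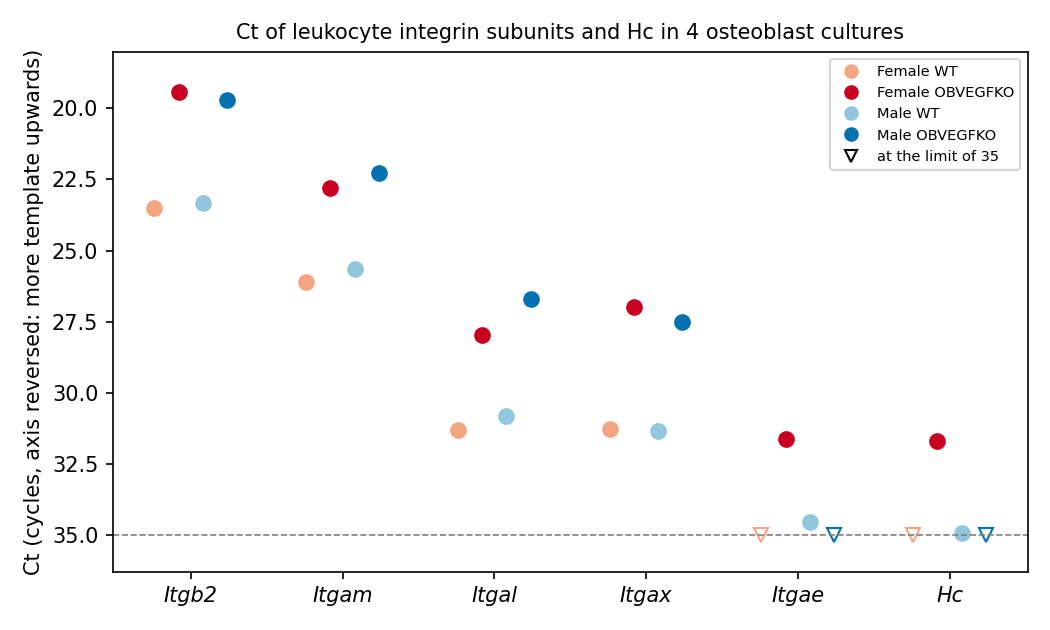
Ct (in cycles, on a reversed axis, so that more template lies higher) of the 6 genes in the 4 cultures, with 1 point per culture and open triangles at the limit of 35. *Itgb2* spans 19.44 to 23.50 and *Itgam* 22.29 to 26.12, whereas *Itgae* and *Hc* leave the region of the limit in the female OBVEGFKO culture at 31.64 and 31.68.

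The ranks of 4 matrix genes that OBs express strongly were read. *Col1a1*, the main collagen chain of bone, ranked 3 to 5 of 84 from the lowest Ct, *Sparc* (osteonectin) 2 to 4 and *Spp1* (osteopontin) 3 to 8. *Postn* (periostin) ranked 3 in female OBVEGFKO and 10 to 14 in the other cultures. These genes were thus among the strongest signals of every culture. *Col3a1*, another collagen gene, ranked 1 to 2 and *Fn1* (fibronectin) 5 to 7. Ranks of matrix genes do not tell OBs from other matrix-forming cells, so the labelled cell type was not tested. Of the 5 leukocyte integrin genes (*Itgal*, *Itgam*, *Itgax*, *Itgb2* and *Itgae*), 4 and 5 were under the limit in female and male WT cells, and 5 and 4 in female and male OBVEGFKO cells, beside 77, 79, 82 and 79 of all 84 wells, so these counts do not set the 5 genes apart. *Mmp12*, the macrophage elastase, had a Ct of 20.25 to 23.69, and *Mmp8*, the neutrophil collagenase, of 27.46 to 31.87.

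*Itgb2* gave the strongest signal of the 5 leukocyte integrin genes in every culture. If all assays are taken to double per cycle, the summed signal of these genes was 4.73% and 4.11% of the *Col1a1* signal in female and male WT cells, and 7.51% and 5.17% in female and male OBVEGFKO cells. The share was the highest in the female OBVEGFKO culture, and higher in each OBVEGFKO culture than in the WT culture of its sex. These are whole cultures, in which a change in the number of leukocytes and a change in RNA per cell cannot be told apart, and the part of other cell types in the results below was not tested.

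From female WT to female OBVEGFKO cells, all 6 genes were at least 2-fold higher after the housekeeping correction, with *Itgae* and *Hc* as lower limits. The same held for 89.0% of the 82 wells with a defined fold change, so this count is near that of the array. *Itgax* was 6.17-fold higher and *Itgb2* 5.33-fold higher, on Ct values 4.27 and 4.06 cycles lower. *Itgal* was 3.26-fold and *Itgam* 3.22-fold higher, on Ct values 3.35 and 3.33 cycles lower. Against the median log2 fold change of the array, 1.64, *Itgax* departed by 0.99 and *Itgb2* by 0.78, at ranks 7 and 12 of 76 from the highest, whereas *Itgal* (0.07) and *Itgam* (0.05) lay at the median. *Itgae* was at least 3.28-fold and *Hc* at least 3.19-fold higher, limits that lie 0.08 and 0.04 above the median. With the limit of detection at 34, their log2 limits were 0.72 and 0.68, no longer 2-fold, and the count was 4 in place of 6. No well was at least 2-fold lower (0.0%).

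From male WT to male OBVEGFKO cells, the 4 genes of the β2 family were at least 2-fold higher, as were 96.3% of the 81 wells with a defined fold change. *Itgal* was 9.45-fold higher, on a Ct 4.10 cycles lower, and ranked 3 of 76 from the highest. *Itgax* was 7.84-fold higher (rank 7), *Itgb2* 6.87-fold (rank 9) and *Itgam* 5.66-fold (rank 12). All 4 lay above the array median log2 fold change of 1.98, by 1.26, 0.99, 0.80 and 0.52. Among the 81 wells, *Itgae* alone was lower by at least 2-fold (1.23%), at a limit of 2.48-fold, and the log2 fold change of *Hc* was −0.93 or less. The measured Ct of these 2 genes was only 0.45 and 0.07 cycles higher than in male WT cells, so most of both limits is the housekeeping correction, a change of −0.859 cycles, and without normalisation neither was 2-fold lower. Against the array median they departed by −3.29 and −2.91 as limits, and with the array median Ct as reference their log2 limits were −3.42 and −3.04, so both passed 2-fold lower there. With the limit set at 34, *Itgae* and *Hc* have no defined fold change in male cells.

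The departures from the array median were alike in the sexes for *Itgb2* (0.78 in female and 0.80 in male cells) and *Itgax* (0.99 in both). *Itgam* departed by 0.05 in female and 0.52 in male cells, and *Itgal* by 0.07 and 1.26. The effect of OBVEGFKO was larger in male than in female cells by 1.54 for *Itgal*, 0.82 for *Itgam*, 0.37 for *Itgb2* and 0.35 for *Itgax* on the log2 scale, beside an array median of 0.35 with an interquartile range of 0.09 to 0.66. *Itgal* thus ranked 7 and *Itgam* 16 of 76, while *Itgb2* and *Itgax* stood at the median. Without normalisation the 4 differences were 0.75, 0.03, −0.42 and −0.44, so the direction turned for *Itgb2* and *Itgax*, and *Itgam* had almost none. The correction shifts every well by the same amount, so distances from the array median of the differences were the same with and without it. *Itgal* lay 1.19, *Itgam* 0.47 and *Itgb2* 0.02 above that median, and *Itgax* lay at it. For *Itgae* the male effect was at least 8.14-fold lower than the female effect, and for *Hc* at least 6.08-fold lower. None of these sex differences was tested, as there was 1 culture per sex and genotype.

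The size of these fold changes rests on the reference. When each culture was centred on the median Ct of the array instead, the female log2 fold changes were 0.23 for *Itgax*, 0.02 for *Itgb2*, −0.69 for *Itgal* and −0.71 for *Itgam*, and none of the 4 was 2-fold higher. In male cells they were 1.13 for *Itgal*, 0.86 for *Itgax*, 0.67 for *Itgb2* and 0.39 for *Itgam*. With this reference the direction in OBVEGFKO cells held for all 4 genes in male cells, and turned for *Itgal* and *Itgam* in female cells. The share of all wells past 2-fold was not counted with it. From female WT to female OBVEGFKO cells the median Ct went from 25.96 to 21.92, while the median change of the wells under 35 was −3.28 cycles. With that median change subtracted instead, *Itgal* (0.07) and *Itgam* (0.05) did not turn.

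**Figure D2:**
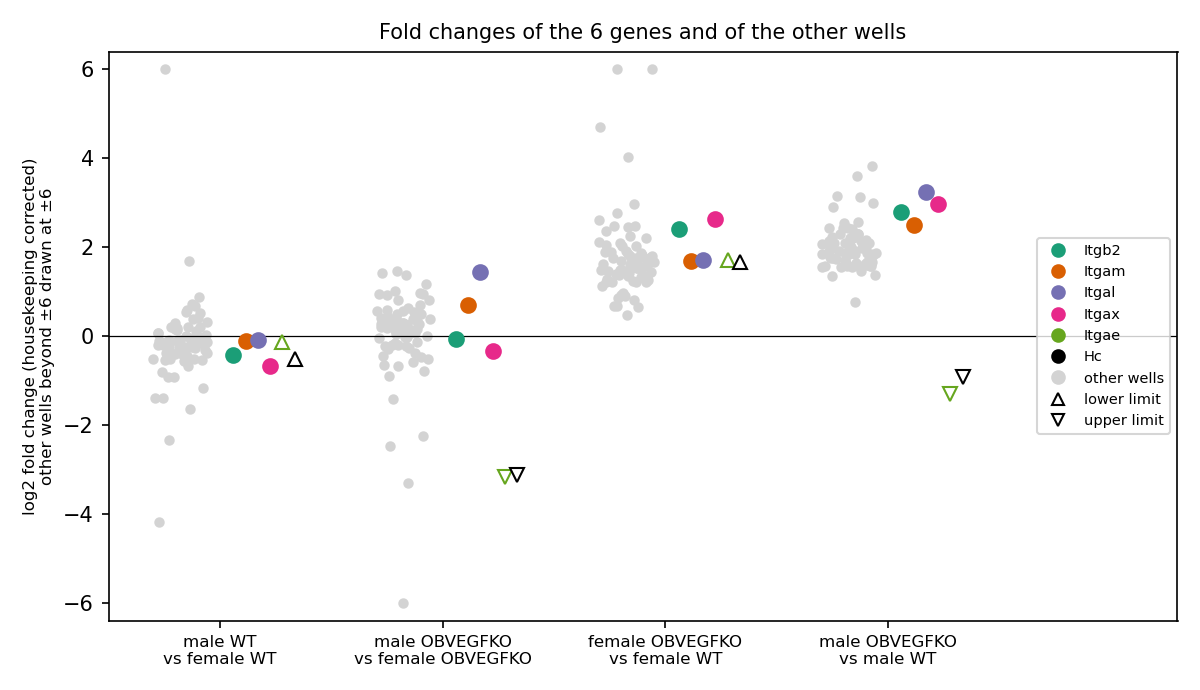
Log2 fold change after the housekeeping correction (vertical axis) in the 4 comparisons, with the 6 genes in colour, the other wells measured under the limit in both cultures in grey (drawn at ±6 where they lie beyond it), and open triangles for limits. In male OBVEGFKO versus male WT cells the 4 β2-family genes lie between 2.50 and 3.24, above the array median of 1.98, and *Itgae* and *Hc* lie under 0 at limits of −1.31 and −0.93.

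Between male and female WT cells, none of the 4 β2-family genes differed by 2-fold, and neither limit of *Itgae* and *Hc* passed it, beside 2.5% of 80 wells at least 2-fold higher and 8.75% at least 2-fold lower in male cells. *Itgal* was 1.07-fold, *Itgam* 1.09-fold, *Itgb2* 1.35-fold and *Itgax* 1.61-fold lower in male cells. *Itgal* and *Itgam* lay within 0.06 of the array median log2 value of −0.15, and *Itgb2* and *Itgax* lay 0.28 and 0.53 below it. The correction, a housekeeping change of −0.593 cycles, carries the sign of 3 of these values, since the Ct itself was lower in male cells for *Itgal* (0.50 cycles), *Itgam* (0.47) and *Itgb2* (0.16), and higher for *Itgax* (0.09). For *Itgae* and *Hc* the direction was not determined, because the female WT culture was at the limit.

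Between male and female OBVEGFKO cells, 1 of the 6 genes was at least 2-fold higher in male cells, beside 7.32% of 82 wells, and 2 were at least 2-fold lower, beside 9.76%. *Itgal* was 2.72-fold higher in male cells, the second highest of 76 wells, and 2.38-fold higher without normalisation. *Itgam* was 1.62-fold higher, *Itgb2* was 1.05-fold lower and *Itgax* was 1.26-fold lower. With the array median Ct as reference, *Itgb2* (0.38) and *Itgax* (0.11) had log2 values above 0, so both directions turned. With the median change of the wells under 35 subtracted instead, both stayed below 0, at −0.27 and −0.54. The 2 lower genes were *Itgae*, by at least 8.99-fold, and *Hc*, by at least 8.74-fold. Their limits without normalisation were 10.3-fold and 9.99-fold, and with the limit of detection at 34 their log2 values were −2.17 and −2.13, still past 2-fold. Without *Lamc1*, *Sele*, *Timp1* and *Col2a1*, the wells lower by at least 2-fold in the male culture numbered 5 in place of 8, and *Itgae* and *Hc* were 2 of these 5.

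The gap in Ct between 2 genes of the same culture is free of any normalisation. The gap from *Itgax* to *Itgb2* was 7.76 and 8.01 cycles in female and male WT cells, and 7.55 and 7.82 cycles in female and male OBVEGFKO cells. This range of 0.46 cycles was the third smallest of 75 wells set against *Itgb2*, where the median range was 1.22 cycles. *Itgav*, whose αV chain does not pair with β2, followed at 0.50 cycles, so a small range is not particular to partners. The gap from *Itgam* to *Itgb2* was 2.62, 2.31, 3.35 and 2.59 cycles in the same order, and that from *Itgal* to *Itgb2* was 7.81, 7.47, 8.52 and 7.01. *Itgax* kept a nearly constant distance from *Itgb2*, whereas *Itgam* and *Itgal* were farthest from *Itgb2* in the female OBVEGFKO culture, and *Itgal* was nearest in the male OBVEGFKO culture. The ranges for *Itgam* and *Itgal*, 1.04 and 1.51 cycles, ranked 26 and 51 of 75.

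Likeness of pattern was measured as the root mean square difference between Ct profiles over the 4 cultures, after each profile was centred on its own mean. The profile most like that of *Itgb2* was *Entpd1* (0.118 cycles), an ectonucleotidase of the cell surface, followed by *Lama3* (0.140), a laminin chain. *Itgax* was nearest to *Itgb2* (0.164) and then to *Lama3* (0.261). *Itgam* was nearest to *Col1a1* (0.058) and to *Itga5* (0.130), the α chain of the fibronectin receptor, and the median of all 75 other wells was 0.349. *Itgal* had no profile as close, with *Mmp1a*, an interstitial collagenase, at 0.285 and *Adamts5*, an aggrecanase, at 0.293. With 4 points per profile, all from the same 4 cDNAs, these distances are descriptions of these cultures.

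*Itgam* and *Itgax* are adjacent genes on mouse chromosome 7, with no other protein-coding gene between them in the GRCm38.p6 annotation, while *Itgal* lies on the same chromosome with 35 protein-coding genes between it and *Itgam*. The profiles of *Itgam* and *Itgax* differed by 0.544 cycles, which placed *Itgax* 64 of 75 in nearness to *Itgam*, and *Itgam* 26 of 75 in nearness to *Itgax*. *Itgal* was nearer to *Itgam* at 0.326 (29 of 75), and *Itgam* was 4 of 75 in nearness to *Itgal*. *Itgb2* lies on chromosome 10, *Itgae* on chromosome 11 and *Hc* on chromosome 2.

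Promoter sequence from RefSeq (GRCm38.p6) was at hand for 3 of the 6 genes, *Itgam*, *Itgax* and *Hc*. The upstream 250 bases of the adjacent pair are shown because the 2 genes are neighbours. The capitals mark GAGGAA or its reverse complement TTCCTC, the purine-rich core bound by PU.1, an Ets factor of myeloid cells known for its action on the *Itgam* promoter. The *Itgam* window (plus strand, chr7:128062390-128062639) holds 1 of each, beginning 84 and 15 bases before the start of the gene, and the *Itgax* window (plus strand, chr7:128129300-128129549) and that of *Hc* hold neither. At least 1 match on either strand was present in 23.3% of 32851 mouse promoter windows of this length. A match describes these letters and is not a measured site, and the absence of a match says nothing about the factor.
Itgam: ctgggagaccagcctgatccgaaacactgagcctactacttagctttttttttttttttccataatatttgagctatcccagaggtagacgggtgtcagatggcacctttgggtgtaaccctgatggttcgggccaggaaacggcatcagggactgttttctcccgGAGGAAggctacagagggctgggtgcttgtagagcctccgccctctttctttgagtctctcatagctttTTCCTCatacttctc
Itgax: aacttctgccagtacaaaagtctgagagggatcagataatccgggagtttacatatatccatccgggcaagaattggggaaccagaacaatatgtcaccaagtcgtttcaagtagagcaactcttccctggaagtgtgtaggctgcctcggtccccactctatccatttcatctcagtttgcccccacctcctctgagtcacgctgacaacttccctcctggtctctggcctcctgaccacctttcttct

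The array also holds 2 genes for ligands of these receptors. *Icam1*, bound by the β2 integrins, had Ct values of 24.20 and 23.86 in female and male WT cells, and of 20.80 and 20.70 in female and male OBVEGFKO cells. Its OBVEGFKO effect was 3.38-fold in female cells and 4.93-fold in male cells, both upwards, and departed from the array median by 0.12 and 0.32. *Cdh1*, which encodes the E-cadherin bound by the αE integrin, had Ct values of 33.59, 35, 29.58 and 28.85. Its upward effect was 5.15-fold in female cells and at least 39.1-fold in male cells. *Cdh1* and *Itgae* were thus both detected in the female OBVEGFKO culture, and in male OBVEGFKO cells *Cdh1* had its lowest Ct of the 4 cultures while *Itgae* was at the limit.

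Set beside the β2 family were the 8 integrin subunits of the array that bind matrix or serve outside leukocytes as well (*Itga2*, *Itga3*, *Itga4*, *Itga5*, *Itgav*, *Itgb1*, *Itgb3* and *Itgb4*). In female OBVEGFKO versus WT cells, 6 of the 8 were at least 2-fold higher, with a median log2 fold change of 1.39, against 2.06 for the 4 β2-family genes and 1.64 for the array. In male cells all 8 were at least 2-fold higher, with a median of 2.25 against 2.88 and 1.98. Over all wells the shares at least 2-fold higher were 89.0% and 96.3%, so these counts do not set the 8 subunits apart. The ranges overlapped in both sexes. In female cells they were 0.48 to 1.92 for the 8 subunits and 1.69 to 2.63 for the 4 genes, and in male cells 1.56 to 3.59 and 2.50 to 3.24. *Itga4*, whose α4 chain is also carried by leukocytes, had the highest male log2 value of these 8 (3.59), above *Itgal* (3.24). *Itgb1*, the β chain shared by most matrix receptors, had Ct values of 21.24, 20.85, 17.77 and 17.78, so *Itgb2* lay 2.26 and 2.49 cycles above it in female and male WT cells, and 1.67 and 1.92 cycles above it in female and male OBVEGFKO cells.

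The leukocyte genes *Mmp8* and *Mmp12* were each at least 2-fold higher in OBVEGFKO cells of both sexes, as were 89.0% of all wells with a defined fold change in female and 96.3% in male cells. Of the endothelial genes *Pecam1*, *Sele* and *Selp*, 2 were so in female cells, with *Sele* as a limit from its outlying Ct of 15.65. In male cells 1 of the 2 with a defined fold change was so, as *Sele* was at 35 in both male cultures. Of the OB genes *Col1a1*, *Spp1*, *Sparc* and *Postn*, 3 were so in female and 4 in male cells, with median log2 fold changes of 1.58 and 1.84. Their log2 values ranged from 0.805 to 4.695 in female and from 1.551 to 2.411 in male cells. *Postn* was the highest in female cells, at 25.9-fold, and was 9.83-fold lower in male than in female OBVEGFKO cells. Both values rest on 1 reading, a Ct of 14.84 in female OBVEGFKO, beside 18.33 to 21.18 in the other cultures. *Mmp12* had an upward OBVEGFKO effect of 3.47-fold in female cells and 4.12-fold in male cells, within 0.16 of the array median in both. The effect on *Mmp8* was 6.80-fold and 3.98-fold upwards, and departed by 1.13 in female and 0.01 in male cells. *Pecam1*, an adhesion molecule of endothelium, platelets and leukocytes, was higher by 1.87-fold and 1.69-fold, below the array median by 0.73 and 1.22. In male cells it was 5.04-fold lower than in female WT and 5.57-fold lower than in female OBVEGFKO cells. *Selp*, the P-selectin of endothelium and platelets, had log2 values of −0.92 and −1.43 from female to male cells in the same 2 comparisons.

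*Itgae* and *Hc* were 2 of 8 wells at the limit in at least 1 culture. Of the 7 wells at the limit in female WT cells, 5 were under it in female OBVEGFKO cells. Among these 5, *Cdh3* (P-cadherin) and *Col4a3* (a basement membrane collagen chain) were also under it in male OBVEGFKO cells, at Ct values of 32.43 and 31.42, whereas *Itgae*, *Hc* and *Sele* were at 35 there. In female OBVEGFKO cells *Cdh3* and *Col4a3* had Ct values of 31.45 and 31.01, close to those of *Itgae* and *Hc*. Wells with a high Ct scattered more. In female OBVEGFKO versus WT cells, the median distance from the array median was 0.76 on the log2 scale for the 20 wells whose highest Ct was above 30 and under 35, which include *Itgal* and *Itgax*, against 0.19 for the 42 wells whose Ct stayed at 26 or lower in every culture, which include *Itgb2*. In male OBVEGFKO versus WT cells the 2 distances were nearer each other, at 0.41 and 0.23, and between the sexes they were 0.62 and 0.22 in WT cells, and 0.61 and 0.23 in OBVEGFKO cells.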

How the data were processed

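Total RNA of 4 OB cultures, 1 per group, was reverse transcribed and run on an RT2 Profiler PCR array with SYBR Green. The authors deposited raw Ct values of 84 wells to 2 decimals. Their second deposited table gives ratios (linear fold changes) for 4 comparisons, made with the ΔΔCt method relative to housekeeping genes of the array. All per-sample columns were used. Housekeeping wells were not analysed here. Their Ct change was recovered as the median over wells of the log2 ratio plus the Ct difference, for ratios of at least 0.5. It was −0.593 (male versus female WT), 0.193 (male versus female OBVEGFKO), −1.645 (female OBVEGFKO versus WT) and −0.859 cycles (male OBVEGFKO versus WT). The spread over wells was at most 0.0064 cycles (SD). The ratios served for nothing else and are not printed. The log2 fold change is this change minus the Ct difference, at an efficiency of 2 per cycle. A Ct of 35 gives a limit, counted only where the limit itself passes the fold, and wells at 35 in both cultures have no fold change.

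Gene names came from the array layout, checked by matching the fold changes that the study gives for 11 genes, to 2 digits, with the 84 wells. All 11 were nearest to their layout well, some by a thin margin (for *Spp1*, a gap of 0.100 on the log2 scale against 0.111 for the next well). Since wells were located by those values, closeness to them is no independent check. All 84 symbols matched the GRCm38.p6 gene table. The genes and lists were chosen with earlier results of these data known. Named were the 6 genes, the fixed lists (ligands, other integrin subunits, leukocyte, endothelial and OB genes, with 1 list gene not reported here), and the 2 nearest profiles of each gene under 35 in all cultures. *Adamts5*, *Entpd1*, *Lama3* and *Mmp1a* entered by that last rule, and *Lamc1*, *Sele*, *Timp1*, *Col2a1*, *Cdh3*, *Col4a3*, *Col3a1* and *Fn1* are named for their values. Amplification thresholds and software settings are not given in the sources used here. As each group is 1 culture, no test was run. Alternatives were the median Ct of the array or the median change of wells under 35 as reference, no normalisation, an efficiency of 1.9, a limit of 34, and folds of 1.5 and 4. Python 3.11.15, numpy 2.4.6, pandas 2.3.3 and matplotlib 3.10.9 were used.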

Additional observations from a re-analysis of the deposited data

Results flagged for a closer look

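After the housekeeping correction, *Itgae* and *Hc* were higher in female and lower in male OBVEGFKO cells than in the WT cells of the same sex, and these opposite directions are what flagged them. For *Itgae* the log2 values were at least 1.72 in female and at most −1.31 in male cells. For *Hc* they were at least 1.68 and at most −0.93. This sex difference was not tested, since each group is 1 culture. Both genes were at a Ct of 35 in female WT and male OBVEGFKO cells, and in male cells their Ct differed by 0.45 and 0.07 cycles between the genotypes. With the array median Ct as reference, the female lower limits were −0.68 (*Itgae*) and −0.72 (*Hc*), so the female direction is not determined there, and the male upper limits were −3.42 and −3.04. With the median change of wells under 35 subtracted, the female lower limits were 0.08 and 0.04. With the housekeeping correction and the limit of detection at 34, the female lower limits were 0.72 and 0.68, and the male values are undefined.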

How the results depend on the processing

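The reference decided the size of the OBVEGFKO effects and the sign of some values. With the array median Ct as reference, the median log2 fold change of the 4 β2-family genes in female OBVEGFKO versus WT cells was −0.34 in place of 2.06, with *Itgal* at −0.69 and *Itgam* at −0.71, and 0 of the 6 genes were at least 2-fold higher. In male cells the median was 0.77 in place of 2.88, with 1 gene higher and 2 lower, and between OBVEGFKO cultures it was 0.76 in place of 0.31, with 2 genes higher, and *Itgb2* (0.38) and *Itgax* (0.11) turned upwards. With the median change of wells under 35 subtracted, the medians were 0.42 in female and 0.90 in male cells, with 0 genes higher in female cells, and 1 higher and 2 lower in male cells. *Itgal* (0.07) and *Itgam* (0.05) then kept their direction in female cells. So did *Itgb2* (−0.27) and *Itgax* (−0.54) between the OBVEGFKO cultures. Under that reference, 69 of the 76 wells under 35 in all cultures lay within 2-fold of the array median in each sex. Shares of all wells were not counted for the other references, efficiency, limit or folds, so those counts of genes are not set against the array. Without normalisation the medians of the 4 genes were 3.70 in female and 3.74 in male cells, 0 genes were lower in male OBVEGFKO cells, and between WT cultures the median was 0.32 in place of −0.28. The male minus female differences in effect were then 0.75 (*Itgal*), 0.03 (*Itgam*), −0.42 (*Itgb2*) and −0.44 (*Itgax*). Their distances from the array median of these differences did not change. With a limit of 34, 0 genes were lower in male OBVEGFKO cells, and 4 in place of 6 were higher in female OBVEGFKO cells, where the limits of *Itgae* and *Hc* fell to 0.72 and 0.68. At 1.5-fold, 1 gene (*Itgax*) was lower in male WT cells, 2 were higher in male cells between the OBVEGFKO cultures, and 2 were lower in male OBVEGFKO versus WT cells. At 4-fold, 0 were higher in male cells between the OBVEGFKO cultures, 2 were higher in female OBVEGFKO versus WT cells, and 0 were lower in male OBVEGFKO cells. An efficiency of 1.9 moved none of these medians by as much as 0.40 (the robust SD of the array between WT cultures, used as the margin), and left the counts within 1.5 times. Without the 4 wells that stood far apart, an alternative chosen after seeing the data, 1 well in place of 2 was at least 2-fold higher in male WT cells. The columns carry no replicate numbers, and a pairing of the genotypes by sex, which would leave 1 residual degree of freedom, was not run. A Ct of 35 hides any level below it, so *Itgae* and *Hc* have limits and not fold changes.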
